A study of Homo sapiens with 21 samples.

Results

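The surface ligands that T cells and natural killer (NK) cells read on their targets were followed in MM.1S, an established line of human multiple myeloma derived from blood. The 10 genes were chosen by name, out of 17691 gene symbols in the deposited table: CD80 and CD86 (costimulation), CD48, CD58 and ICAM1 (adhesion), MICA, MICB and ULBP1 (ligands of the NK receptor NKG2D), PVR (ligand of DNAM-1 and TIGIT) and CD274 (PD-L1). The 7 groups had 3 libraries each. Wild-type cells were left untreated or kept for 24, 48 or 72 h in pomalidomide at 1 µM. Cells without drug carried a control knockdown, whose hairpin and duration these sources do not state, or had received lentivirus with a hairpin against ARID2 or against Aiolos for 72 h. One line was used, and no second hairpin per gene is labelled. Values are TPM, a length-scaled share of all transcripts, so levels of different genes can be set side by side. TPM holds no counts, so the depth of each library is unknown, and protein at the cell surface was not measured.

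Pomalidomide binds cereblon, part of a ubiquitin ligase, which then marks for degradation the lymphoid transcription factors Ikaros (IKZF1) and Aiolos (IKZF3). ARID2 is a subunit of the PBAF chromatin remodelling complex. A T cell needs a costimulatory signal, given by CD80 or CD86 through CD28, beside its antigen receptor, while PD-L1 restrains it through PD-1. CD58 and ICAM1 hold the contact through CD2 and the integrin LFA-1, and CD48 binds 2B4 on NK cells. NKG2D ligands appear on stressed or transformed cells and trigger killing, and PVR can either activate through DNAM-1 or inhibit through TIGIT. Drugs of the pomalidomide class are known for stimulating T and NK cells, and the ligands on the myeloma cell are the other side of that contact.

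The stretches upstream of 4 of the genes are shown because they hold letters that transcription factors of stress, interferon and Ikaros signalling are known to favour. RefSeq promoter entries (GRCh38.p14) were found for 10 of 10 genes, 11 promoters in all since CD86 has 2 starts. The 250 bases before each start were searched on both strands for 8 motif forms, and stretches inside an annotated exon are not shown. Capitals mark the matches: GAANNTTC, the core of a heat shock element, in MICA (chr6:31403345-31403578, plus strand) and MICB (chr6:31497895-31498085, plus strand); GAAANNGAA, the core of an interferon response element, and TTCNNNGAA, a STAT site, in CD274 (chr9:5450292-5450502, plus strand); and TGGGAA, the Ikaros core, at the second start of CD86 (chr3:122077534-122077783, plus strand).
MICA: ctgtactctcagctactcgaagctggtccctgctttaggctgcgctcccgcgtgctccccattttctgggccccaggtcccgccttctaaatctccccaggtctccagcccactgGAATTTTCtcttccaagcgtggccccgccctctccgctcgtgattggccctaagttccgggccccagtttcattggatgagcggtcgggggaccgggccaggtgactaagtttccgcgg
MICB: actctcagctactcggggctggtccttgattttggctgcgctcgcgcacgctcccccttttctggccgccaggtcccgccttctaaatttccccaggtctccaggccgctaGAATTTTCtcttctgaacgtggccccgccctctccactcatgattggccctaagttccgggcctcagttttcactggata
CD274: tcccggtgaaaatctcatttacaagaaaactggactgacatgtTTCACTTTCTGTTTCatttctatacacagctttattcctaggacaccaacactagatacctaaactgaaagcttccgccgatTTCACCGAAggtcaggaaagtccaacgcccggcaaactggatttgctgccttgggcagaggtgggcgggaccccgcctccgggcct
CD86: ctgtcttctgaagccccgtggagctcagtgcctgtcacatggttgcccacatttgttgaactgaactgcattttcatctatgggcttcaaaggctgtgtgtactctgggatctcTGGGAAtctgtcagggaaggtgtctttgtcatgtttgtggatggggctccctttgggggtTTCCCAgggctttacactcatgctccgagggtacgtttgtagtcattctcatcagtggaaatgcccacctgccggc
The MICA and MICB windows were identical at 210 of 254 aligned positions (82.7%), and both hold the same 8 letters, 135 and 139 bases before the start. CD274 held 2 overlapping interferon matches, the first 207 bases before the start, and 1 STAT match 125 bases before it. CD86 held 2 Ikaros matches, 136 and 76 bases before its second start. Among 35116 RefSeq promoters the heat shock core stood in 5.78%, the interferon core in 6.88%, the STAT site in 6.57% and the Ikaros core in 20.8%, so each is a common set of letters. CD48 also held a heat shock core and ICAM1 a STAT site. In the windows of CD80, CD58, PVR, ULBP1 and the first CD86 start none of the 8 forms was found. A match describes letters and shows no binding.

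The genes lie apart in the genome except for a few neighbours (GENCODE 29, GRCh38). CD80 (chr3:119524293-119559602, minus strand) and CD86 (chr3:122055366-122121139, plus strand) share chromosome 3. MICA (chr6:31399784-31415315), MICB (chr6:31494881-31511124) and ULBP1 (chr6:149964007-149973710), all on the plus strand, lie on chromosome 6. CD48 (chr1:160678746-160711851) and CD58 (chr1:116514535-116571039) are on the minus strand of chromosome 1. ICAM1 (chr19:10270835-10286615) and PVR (chr19:44643798-44663583) lie on the plus strand of chromosome 19, and CD274 (chr9:5450503-5470566) on that of chromosome 9. The library kit does not mark strand, so reads from CD80 and the overlapping TIMMDC1, from CD48 and AL121985.1, and from ICAM1 and its antisense neighbours AC011511.2 and AC011511.5 cannot be told apart where exons overlap. On the same strand, exons of HCP5 overlap MICA and exons of CEACAM19 overlap PVR. Group means of CEACAM19 ran from 1.48 TPM at 24 h of drug to 6.32 TPM in the libraries labelled Aiolos knockdown, where PVR was also highest (98.7 TPM). From 48 to 72 h of drug CEACAM19 went from 3.03 to 5.68 TPM and PVR from 52.4 to 61.9 TPM. The part of CEACAM19 reads in the PVR values was not tested. Of the 50-base windows of the longest coding transcript, 2.62% in MICA, 2.84% in MICB, 2.23% in PVR and 6.85% in ULBP1 also occur in another gene. For ULBP1 that gene is RAET1K. Those values are therefore uncertain, by an amount that the share of windows does not give.

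Before the ligands were read, the groups were checked. The ARID2 transcript went from 26, 25.4 and 25.4 TPM with the control hairpin to 12.4, 12.2 and 12.1 TPM with its own (log2 fold change -1.01 ± 0.07 SE). IKZF3 was higher, at 127, 121 and 141 TPM against 83.5, 79.2 and 81.4 TPM in the control knockdown, in the group labelled Aiolos knockdown, against the label, so those are called the libraries labelled Aiolos knockdown. Every direction drawn from them rests on that label. IKZF3 was also above the control knockdown with the ARID2 hairpin, at 118, 119 and 122 TPM (0.55 ± 0.05). Its means were 96.4 TPM in untreated cells and 115, 123 and 112 TPM at the 3 drug times. The control knockdown was thus the lowest of the 7 groups for IKZF3. Of the defining markers, SDC1 (CD138) of plasma cells ran from 588 to 964 TPM, MS4A1 (CD20) of B cells reached at most 0.0473 TPM and CD3E of T cells at most 1.85 TPM. Of the other B cell markers CD79B (group means 34.9 to 72.4 TPM) and BACH2 (6.80 to 27.8 TPM) were present, and of the plasma cell markers CD38 was at 6.92 TPM untreated. At 72 h of drug 7 of the 12 plasma cell markers fell and 4 rose, where 31.6% of all genes fell and 48.1% rose. Libraries of a group correlated at 0.993 to 0.996 across genes and libraries of different groups at 0.908 to 0.987. The mitochondrial share of TPM ran from 13.3% to 18.6%, lowest at 72 h of drug and highest in the ARID2 knockdown, and its part in the results was not tested.

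In untreated cells the 10 ligands spanned a wide range of TPM. CD48 led with 332 ± 4.15 TPM (SD, n = 3), followed by MICB at 68.0 ± 2.51 and PVR at 66.5 ± 3.94, whose libraries overlapped. CD58 (45.7 ± 1.55), ICAM1 (22.7 ± 1.06), MICA (17.1 ± 1.58) and CD86 (11.3 ± 1.03) came next, each below the one before it by more than their spread. CD274 was low, at 0.743, 1.20 and 0.942 TPM, and its highest group mean was 4.50 TPM. ULBP1 was low in all 7 groups, and CD80 was at 0.286, 0 and 0 TPM. CD80 was thus the one gene of the 10 that was near 0 here and above 5 TPM in another group.

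**Figure D1:**
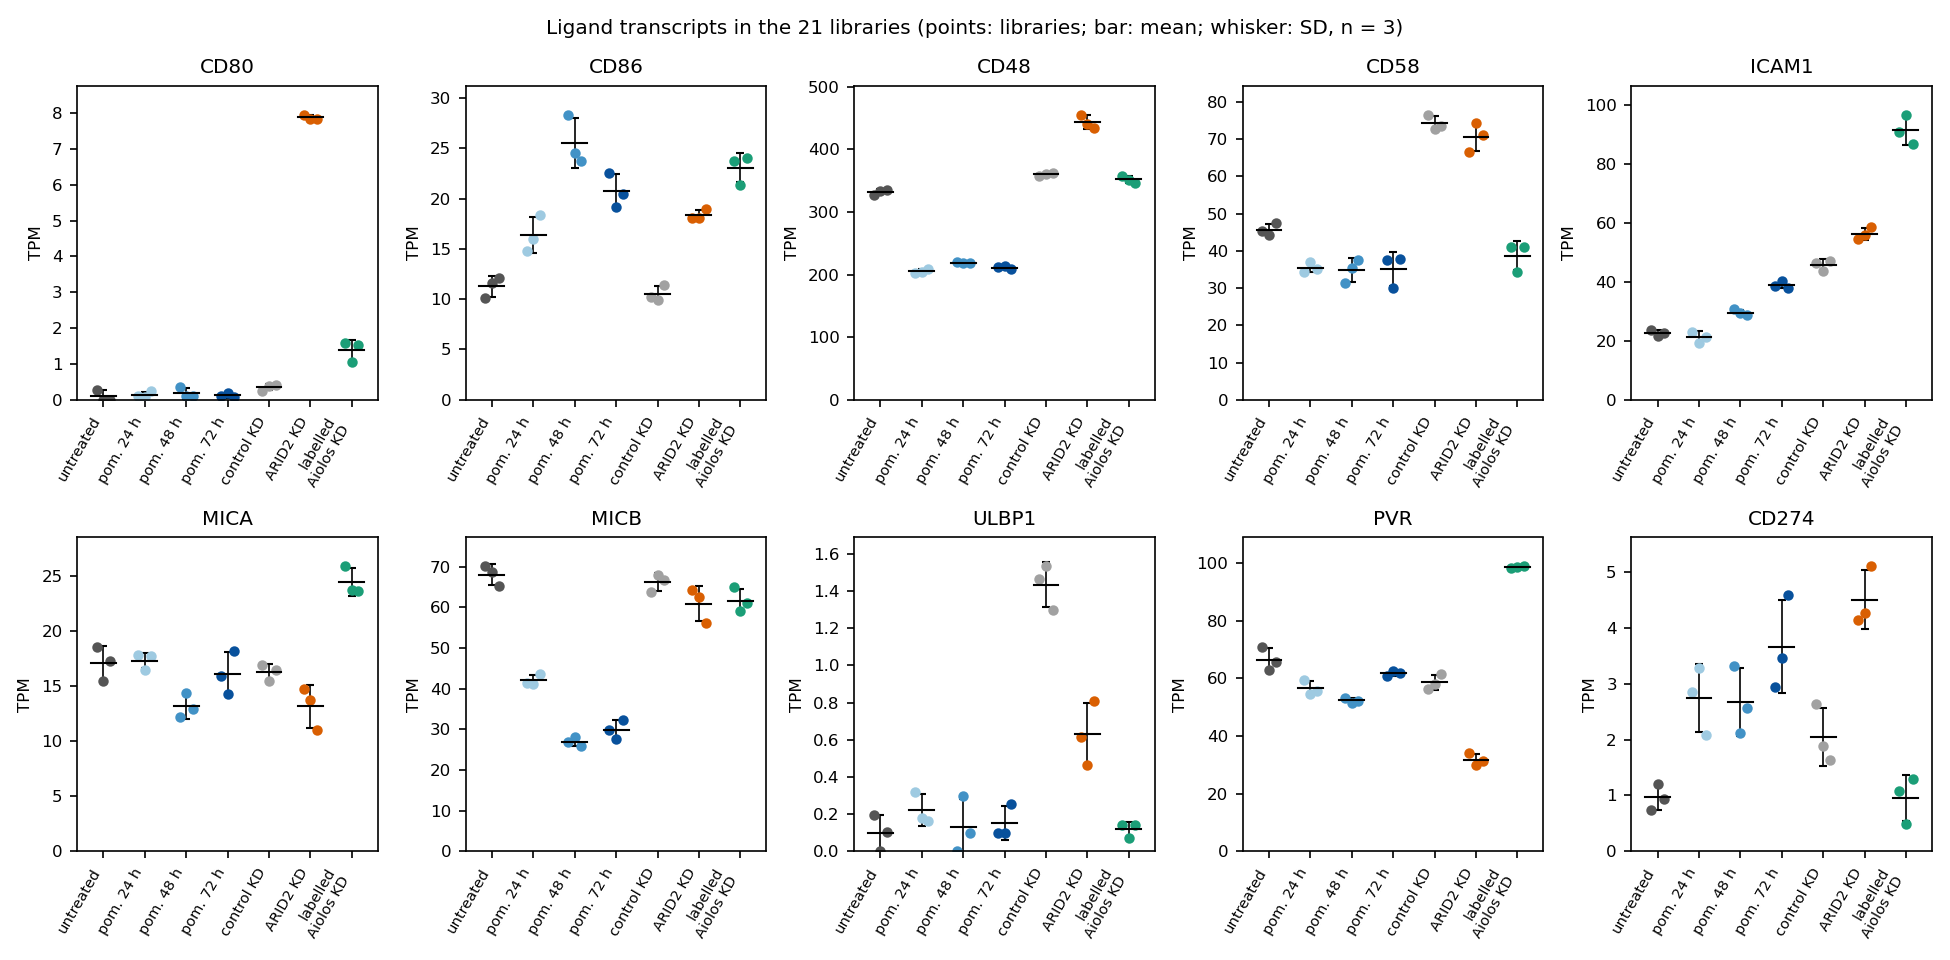
TPM of the 10 ligands (y axes, linear, 1 panel per gene, each with its own scale) in the 7 groups (x axes); points are libraries, bars means and whiskers SD (n = 3). CD80 stands near 0 in all drug libraries and at 7.82 to 7.96 TPM in the ARID2 knockdown, while MICB falls from 68.0 to 26.9 TPM by 48 h of drug.

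A ligand passed where limma's moderated test, fitted to log2(TPM + 1) of 12559 genes in all 21 libraries, gave a Benjamini-Hochberg adjusted p under 0.05. All 10 ligands entered the test, but CD80 did so only through the ARID2 and labelled Aiolos knockdowns, and ULBP1 only through the control knockdown, so each had to differ in some comparison. In comparisons that use those groups, the p-values of CD80 and ULBP1 are therefore no separate support. Fold changes are on the log2(TPM + 1) scale, which understates those of CD80, ULBP1 and CD274. The 3 libraries of a group are described as biological replicates with no cultures or days named, and a p-value therefore measures only how these libraries vary. The 3 drug times share the untreated libraries, and the ARID2 and labelled Aiolos knockdowns share the control knockdown.

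The first question is what the drug did to these ligands. At 24 h 2 ligands rose and 4 fell, where 35.1% of all genes rose and 31.0% fell; at 48 h 3 rose and 5 fell (43.8% and 34.8% of all genes); at 72 h 3 rose and 3 fell (48.1% and 31.6%). The ligands' median log2 fold changes were -0.04, -0.15 and -0.02, beside 0.03, 0.08 and 0.15 over all genes tested. CD86 and CD274 rose and CD48, CD58 and MICB fell at all 3 times. Time in drug and time in culture cannot be told apart, since there is 1 untreated group.

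**Figure D2:**
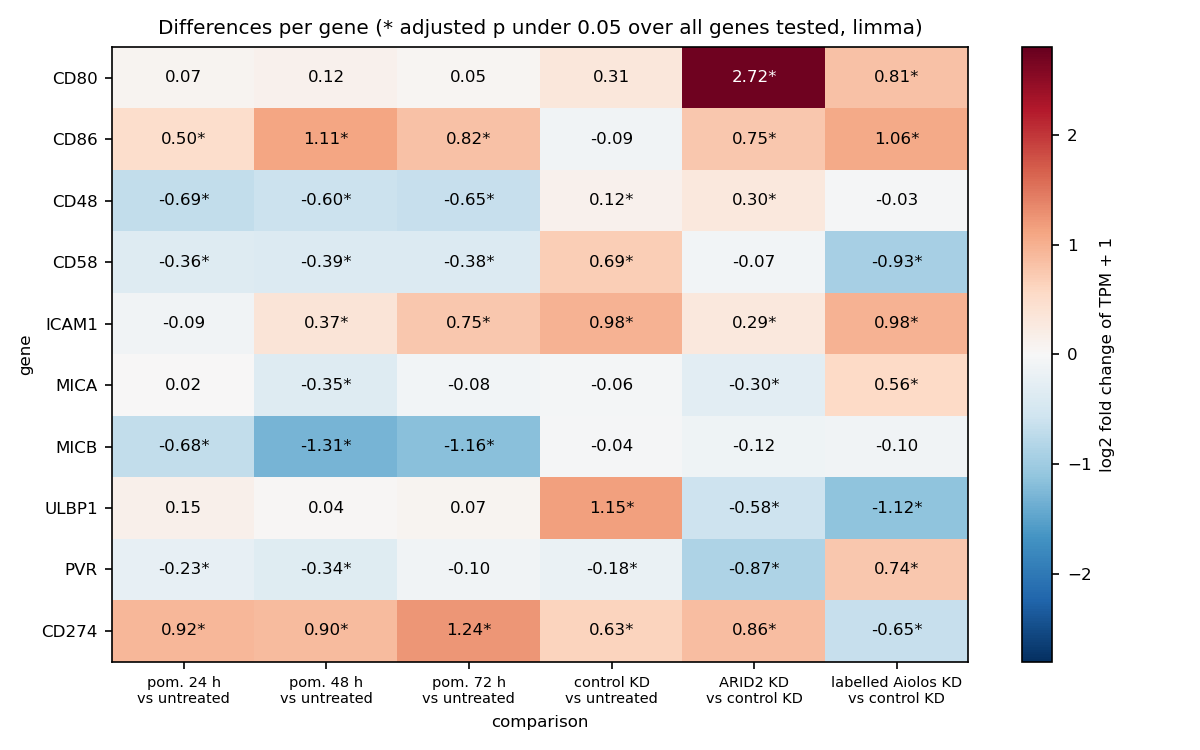
Log2 fold change of TPM + 1 (colour and number) of the 10 ligands (rows) in 6 comparisons (columns); an asterisk marks an adjusted p under 0.05 over all genes tested. MICB is marked only under the drug (-1.31 at 48 h), CD80 only under the knockdowns (2.72 and 0.81), and PVR is blue in the ARID2 knockdown (-0.87) and red in the libraries labelled Aiolos knockdown (0.74).

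Of the costimulatory pair, CD86 rose and CD80 did not pass. CD86 stood at 10.1, 11.6 and 12.1 TPM in untreated cells and at 14.8, 15.9 and 18.3 TPM after 24 h. At 48 h it was at 28.3, 24.5 and 23.7 TPM and at 72 h at 22.5, 19.1 and 20.4 TPM. Every drug library was above every untreated one, with the highest values at 48 h. The log2 fold changes were 0.50 ± 0.09, 1.11 ± 0.09 and 0.82 ± 0.09 (SE; adjusted p = 4.03e-05, 2.72e-10 and 2.85e-08). From 48 to 72 h CD86 fell by 0.29 (adjusted p = 0.00924), a call lost without replicate 1 of the 48 h group (-0.21, adjusted p = 0.066) or replicate 2 of the 72 h group (-0.24, adjusted p = 0.0505). CD80 means stayed between 0.126 and 0.185 TPM under the drug, and its differences of 0.07, 0.12 and 0.05 had adjusted p-values of 0.646, 0.42 and 0.737.

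CD274, which encodes PD-L1, rose from its low level at each time. It was at 2.84, 3.28 and 2.08 TPM after 24 h, at 3.32, 2.12 and 2.57 TPM after 48 h and at 2.95, 3.46 and 4.58 TPM after 72 h. The lowest drug library, at 2.08 TPM, was above the highest untreated one, at 1.20 TPM. Log2 fold changes were 0.92, 0.90 and 1.24 (SE 0.18 each), with adjusted p = 0.000135, 0.000123 and 2.48e-06. Neighbouring times overlapped, and neither 48 against 24 h (-0.02, adjusted p = 0.918) nor 72 against 48 h (0.34, adjusted p = 0.12) passed.

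CD86 and CD274 are also made by myeloid cells, so the 12 myeloid and dendritic markers were read beside them. Of these 5 were kept by the filter and none was at 0 in all 21 libraries. Their summed level was 6.78 to 11.2 TPM in untreated cells, 48.6 to 59.0 TPM at 24 h, 76.1 to 82.2 TPM at 48 h and 58.8 to 63.2 TPM at 72 h. It was 12.5 to 15.0 TPM in the control knockdown, 17.0 to 18.4 TPM with the ARID2 hairpin and 22.6 to 26.8 TPM in the labelled Aiolos libraries. CD68, a lysosomal protein also made outside myeloid cells, was the largest part of the sum in each group (4.74 TPM untreated, 66.8 TPM at 48 h, 13.3 TPM in the ARID2 knockdown). The defining marker CD14 rose from 0.603 ± 0.242 TPM to 3.67 ± 0.882 TPM at 72 h. Of the 5 tested markers 3 rose at 24 h (35.1% of all genes), 5 at 48 h (43.8%) and 3 at 72 h (48.1%). At these times 0 fell, where 31.0%, 34.8% and 31.6% of all genes fell, and the medians were 1.07, 1.23 and 0.78. FCER1A was kept by the filter only through the 24 h group. CD14 means were above 1 TPM only at the 3 drug times and in the labelled Aiolos libraries (1.14 TPM). These counts and medians under the drug are therefore no separate support. In the ARID2 knockdown, where CD86 and CD274 also rose, CD14 fell from 0.667 to 0.183 TPM. There 1 of the 5 rose and 2 fell (33.1% and 29.2% of all genes, median -0.47). In the labelled Aiolos libraries 1 rose and 1 fell (37.2% and 30.7%, median -0.21). Among the tested markers CLEC9A was at 1.93 TPM untreated, 4.04 TPM at 72 h and 4.82 TPM in the control knockdown. S100A9 went from 0.722 TPM untreated to 3.24 TPM at 48 h. FCER1A went from 0.0873 TPM untreated to 1.23 TPM at 24 h and was at 0 TPM at 72 h. Across the 7 groups the means of LYZ and CSF1R, which the filter removed, reached at most 0.465 and 0.538 TPM. The part of these markers in the rise of CD86 and CD274 was not tested.

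The adhesion ligands moved in both directions. CD48, the most abundant, stood at 328, 333 and 336 TPM in untreated cells and at 202, 204 and 208 TPM after 24 h. It was at 218 to 220 TPM at 48 h, a rise of 0.09 from 24 h (adjusted p = 0.00235), and at 208 to 213 TPM at 72 h. The gap between untreated and drug libraries was far wider than the spread within either, and the log2 fold changes were -0.69, -0.60 and -0.65 (SE 0.02 each, adjusted p at most 5.65e-15). CD58, the ligand of CD2, fell from 45.4, 44.4 and 47.4 TPM to 34.4, 37.0 and 35.1 TPM at 24 h. Its libraries ran from 31.3 to 37.7 TPM at 48 h and from 29.9 to 37.9 TPM at 72 h, all below the untreated ones (-0.36, -0.39 and -0.38, SE 0.08 each, adjusted p at most 0.00079). Neither 48 against 24 h (-0.03, adjusted p = 0.76) nor 72 against 48 h (0.01, adjusted p = 0.935) passed for CD58.

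ICAM1, the ligand of LFA-1, rose later and stepwise. It stood at 23.8, 21.7 and 22.6 TPM in untreated cells and at 23.1, 19.3 and 21.3 TPM at 24 h, which overlap. At 48 h its libraries were at 30.7, 29.3 and 28.8 TPM and at 72 h at 38.7, 40.3 and 38.0 TPM. The 48 h libraries were above all earlier ones and the 72 h libraries above all of those. The difference at 24 h was -0.09 ± 0.06 (adjusted p = 0.159); it passed as lower without replicate 1 of the 24 h group (-0.15, adjusted p = 0.0256) and under median-of-ratios scaling (-0.15, adjusted p = 0.036). At 48 and 72 h the log2 fold changes were 0.37 ± 0.06 and 0.75 ± 0.06 (adjusted p = 7.52e-06 and 2.24e-10), and each step passed (0.46 from 24 to 48 h and 0.39 from 48 to 72 h).

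Among the NKG2D ligands, MICB fell and ULBP1 stayed near 0. MICB stood at 70.1, 68.7 and 65.3 TPM in untreated cells and at 41.4, 41.0 and 43.7 TPM at 24 h. It fell further to 26.8, 28.1 and 25.9 TPM at 48 h and was at 29.9, 27.5 and 32.3 TPM at 72 h. The untreated, 24 h and 48 h libraries formed 3 separate levels, while 48 and 72 h overlapped. Log2 fold changes were -0.68, -1.31 and -1.16 (SE 0.06 each, adjusted p = 2.82e-09, 3.37e-14 and 2.24e-13), the largest falls among the 10 ligands at 48 and 72 h. The rise from 48 to 72 h was at the threshold (0.14, adjusted p = 0.0467). It was lost in 10 of the other settings, among them the paired fit with the replicate number (adjusted p = 0.059) and the leaving out of replicate 1 or 3 of either group (adjusted p from 0.0879 to 0.248).

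MICA, the close relative of MICB, moved less. It stood at 18.5, 15.4 and 17.3 TPM in untreated cells, at 17.8, 16.5 and 17.7 TPM at 24 h, at 12.2, 14.4 and 12.9 TPM at 48 h and at 15.9, 14.3 and 18.1 TPM at 72 h. Only the 48 h libraries were all below the untreated ones (-0.35 ± 0.09, adjusted p = 0.00201); 24 h (0.02, adjusted p = 0.866) and 72 h (-0.08, adjusted p = 0.425) did not pass. With median-of-ratios scaling the 72 h difference passed as lower (-0.24, adjusted p = 0.0287). The rise from 48 to 72 h (0.27, adjusted p = 0.0233) was lost with that scaling (0.19, adjusted p = 0.111) and, at 48 h, when replicate 1 (0.22) or 3 (0.26) was left out, or replicate 3 at 72 h (0.19). ULBP1 means were 0.099 TPM untreated and 0.221, 0.131 and 0.152 TPM with the drug, with libraries listed at 0 in both the untreated and the 48 h group, and no difference passed (0.15, 0.04 and 0.07; adjusted p from 0.301 to 0.799).

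PVR, which NK and T cells read through DNAM-1 and TIGIT, dipped and came back. It stood at 70.8, 63.1 and 65.6 TPM in untreated cells, at 59.6, 54.7 and 55.5 TPM at 24 h and at 53.3, 51.6 and 52.3 TPM at 48 h. At 72 h it was at 60.9, 62.7 and 62.0 TPM. The 24 and 48 h libraries lay below the untreated ones (-0.23 ± 0.05 and -0.34 ± 0.05, adjusted p = 0.000358 and 2.6e-06), and PVR rose again from 48 to 72 h by 0.24 (adjusted p = 0.000494). The 72 h libraries were also below the untreated ones, the nearest at 62.7 against 63.1 TPM, but did not pass (-0.10, adjusted p = 0.063). They passed without untreated replicate 2 (-0.14, adjusted p = 0.0232), with quantile normalization (-0.16) and with median-of-ratios scaling (-0.26). The step from 24 to 48 h (-0.11, adjusted p = 0.0611) passed without replicate 2 of the 24 h group (-0.13, adjusted p = 0.0475) and with median-of-ratios scaling (-0.13).

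Counted between drug times, 3 ligands rose and 2 fell from 24 to 48 h (32.1% and 26.1% of all genes), and 4 rose and 1 fell from 48 to 72 h (31.6% and 16.5%). CD86, ICAM1 and CD48 were the 3 that rose from 24 to 48 h, CD48 by 0.09, and MICA and MICB the 2 that fell. With median-of-ratios scaling 2 rose and 2 fell from 48 to 72 h.

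The second question is what the ARID2 knockdown did. Against the control knockdown 5 ligands rose and 3 fell (33.1% and 29.2% of all genes), with a median of 0.11 beside 0.02 over all genes tested. CD80, CD86, CD274, CD48 and ICAM1 rose; PVR, ULBP1 and MICA fell.

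CD80 changed the most. With the control hairpin its libraries held 0.25, 0.393 and 0.406 TPM, and with the ARID2 hairpin 7.96, 7.82 and 7.85 TPM, a 22.5-fold ratio of the mean TPM. No library of any other group came above 1.58 TPM. The log2 fold change was 2.72 ± 0.13 (adjusted p = 5.34e-13), number 14 by size among the 12559 genes. Since CD80 entered the test only through this group and the labelled Aiolos libraries, that p-value and rank are no separate support. TIMMDC1, whose exons overlap CD80 on the other strand, rose from 76.6 to 113 TPM (0.55, adjusted p = 1.62e-09). That was the highest TIMMDC1 level of the 7 groups. In the labelled Aiolos libraries TIMMDC1 stood at 96.5 TPM, where CD80 was at 1.38 TPM. It was at 92.0 and 96.4 TPM at 48 and 72 h of drug, where CD80 was at 0.185 and 0.126 TPM. The part of TIMMDC1 reads in the CD80 values was not tested. CD86, the other CD28 ligand, went from 10.2, 9.95 and 11.4 TPM to 18.1, 18.1 and 18.9 TPM with no overlap (0.75 ± 0.09, adjusted p = 2.32e-07).

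CD274 rose as well, from 2.63, 1.89 and 1.63 TPM to 4.13, 4.27 and 5.10 TPM (0.86 ± 0.18, adjusted p = 0.000299). Its control knockdown libraries were themselves above the untreated ones. CD48 rose from 358, 360 and 362 TPM to 456, 441 and 434 TPM (0.30 ± 0.02, adjusted p = 1.22e-09), which made it the highest CD48 level of the 7 groups. ICAM1 rose from 46.4, 43.7 and 47.2 TPM to 54.4, 55.9 and 58.6 TPM (0.29 ± 0.06, adjusted p = 0.000182). In CD274, CD48 and ICAM1 the groups did not overlap. CD58 overlapped, at 76.6, 72.8 and 73.6 TPM against 66.7, 74.3 and 71.2 TPM (-0.07, adjusted p = 0.468).

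PVR had the largest fall on the log2(TPM + 1) scale under the ARID2 hairpin; as a ratio of mean TPM the low ULBP1 fell further (0.439 against 0.542). The PVR libraries went from 56.2, 58.0 and 61.5 TPM to 33.9, 30.0 and 31.2 TPM (-0.87 ± 0.05, adjusted p = 5.97e-12). Every ARID2 knockdown library was below all 18 libraries of the other groups, the nearest being at 51.6 TPM. MICA was at 16.9, 15.5 and 16.4 TPM against 14.7, 13.7 and 11.0 TPM (-0.30 ± 0.09, adjusted p = 0.0105), a call lost without ARID2 knockdown replicate 3, the lowest (-0.18, adjusted p = 0.0946). MICB overlapped (-0.12, adjusted p = 0.0779) and passed as lower without ARID2 knockdown replicate 1 (-0.16, adjusted p = 0.0397) and with median-of-ratios scaling (-0.15). ULBP1 fell from 1.46, 1.53 and 1.30 TPM to 0.614, 0.465 and 0.807 TPM (-0.58 ± 0.13, adjusted p = 0.000512), and this did not pass with a pseudocount of 0.1 TPM (adjusted p = 0.066).

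The third question concerns the libraries labelled Aiolos knockdown. Against the control knockdown 5 ligands rose and 3 fell (37.2% and 30.7% of all genes; median 0.26 beside 0.05). CD86, ICAM1, CD80, PVR and MICA rose, and ULBP1, CD58 and CD274 fell. CD86 was at 23.8, 21.4 and 24.0 TPM (1.06 ± 0.09, adjusted p = 1.04e-09). ICAM1 was at 90.9, 96.7 and 86.6 TPM, the highest level of the 7 groups (0.98 ± 0.06, adjusted p = 7.46e-12). CD80 was at 1.58, 1.05 and 1.52 TPM, above all control knockdown libraries (0.81 ± 0.13, adjusted p = 1.37e-05).

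PVR and MICA were also at their highest in these libraries. PVR was at 98.3, 98.8 and 99.0 TPM (0.74 ± 0.05, adjusted p = 3.71e-11) and MICA at 25.9, 23.7 and 23.7 TPM (0.56 ± 0.09, adjusted p = 2.88e-05), both above all 18 other libraries. CD58 fell to 40.9, 34.3 and 41.1 TPM from at least 72.8 TPM in the control knockdown (-0.93 ± 0.08, adjusted p = 4.42e-09). ULBP1 fell to 0.14, 0.0713 and 0.14 TPM (-1.12 ± 0.13, adjusted p = 1.57e-07), and CD274 to 1.07, 0.491 and 1.29 TPM (-0.65 ± 0.18, adjusted p = 0.00292). CD48 at 357, 352 and 347 TPM (-0.03, adjusted p = 0.225) and MICB at 64.9, 59.0 and 61.0 TPM (-0.10, adjusted p = 0.126) did not pass. With median-of-ratios scaling both passed as lower, by -0.10 and -0.16.

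Compared with each other, the libraries labelled Aiolos knockdown had 4 ligands higher and 5 lower than the ARID2 knockdown (35.7% and 30.2% of all genes). PVR (1.61 ± 0.05), MICA (0.85 ± 0.09), ICAM1 (0.69 ± 0.06) and CD86 (0.31 ± 0.09) were higher. CD80 (-1.90 ± 0.13), CD274 (-1.51 ± 0.18), CD58 (-0.85 ± 0.08), ULBP1 (-0.54 ± 0.13) and CD48 (-0.33 ± 0.02) were lower. MICB (0.02 ± 0.06, adjusted p = 0.797) did not pass. PVR thus separated the knockdowns on either side of the control, 31.7 TPM against 98.7 TPM, with the control at 58.6 TPM.

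The control knockdown itself differed from untreated cells in 6 ligands, 5 higher and 1 lower (17.3% and 28.4% of all genes). ULBP1 rose from a mean of 0.099 to 1.43 TPM (1.15 ± 0.13), ICAM1 from 22.7 to 45.8 TPM (0.98 ± 0.06), CD58 from 45.7 to 74.3 TPM (0.69 ± 0.08), CD274 from 0.963 to 2.05 TPM (0.63 ± 0.18) and CD48 from 332 to 360 TPM (0.12 ± 0.02). PVR fell by 0.18 (adjusted p = 0.00486), which did not pass with quantile normalization (-0.11, adjusted p = 0.0869). CD80 did not pass (0.31, adjusted p = 0.0584) but did without untreated replicate 1, the one library above 0 (0.43, adjusted p = 0.0154), and in 3 other settings. Lentivirus, hairpin and culture time cannot be told apart in this comparison. Where a knockdown is set against its control, the starting level of ICAM1, CD58, ULBP1 and CD274 was therefore not that of untreated cells: the libraries labelled Aiolos knockdown had CD58 at 38.8 ± 3.88 TPM, and the untreated cells 45.7 ± 1.55 TPM.

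The fourth question is whether the drug at 72 h and each knockdown moved the ligands by different amounts, tested as the difference between the effects. Against the ARID2 knockdown 3 ligands had a higher drug effect and 4 a lower one (40.4% and 29.1% of all genes). The drug effect was lower for CD80 (-2.67 ± 0.18), MICB (-1.04 ± 0.08), CD48 (-0.95 ± 0.03) and CD58 (-0.31 ± 0.12). It was higher for PVR (0.76 ± 0.07), ULBP1 (0.65 ± 0.18) and ICAM1 (0.46 ± 0.08). CD80 and ULBP1 entered the test only through knockdown groups, and neither passed under the drug itself. CD48 fell with the drug and rose with the ARID2 hairpin. The CD58 difference (adjusted p = 0.0244) was lost without ARID2 knockdown replicate 2 (-0.27), 72 h replicate 2 (-0.20) or untreated replicate 3 (-0.28), and that of ULBP1 with a pseudocount of 0.1 TPM (adjusted p = 0.0659). CD86, CD274 and MICA did not pass, with 95% intervals of the difference from -0.18 to 0.32, from -0.15 to 0.90 and from -0.07 to 0.49.

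Against the libraries labelled Aiolos knockdown 3 ligands had a higher drug effect and 6 a lower one (35.0% and 28.0% of all genes). The drug effect was higher for CD274 (1.89 ± 0.25), ULBP1 (1.19 ± 0.18) and CD58 (0.55 ± 0.12). ULBP1 and CD58 did not rise with the drug. For ULBP1 the drug effect was 0.07 (adjusted p = 0.625), and CD58 changed by -0.38 with the drug and -0.93 in the labelled libraries. In both the control knockdown stood above untreated cells (1.43 against 0.099 TPM and 74.3 against 45.7 TPM). MICB (-1.06 ± 0.08), PVR (-0.84 ± 0.07), CD80 (-0.77 ± 0.18), MICA (-0.64 ± 0.13), CD48 (-0.62 ± 0.03) and ICAM1 (-0.23 ± 0.08) had a lower drug effect. CD274 rose with the drug against untreated cells and fell in the labelled libraries against the control knockdown, to 0.951 TPM, where untreated cells had 0.963 TPM. The CD80 difference was lost with a pseudocount of 0.1 TPM (adjusted p = 0.117), and that of ICAM1 (adjusted p = 0.0202) without replicate 2 of the labelled group (-0.19, adjusted p = 0.0612), control knockdown replicate 2 (-0.19, adjusted p = 0.058) or untreated replicate 1 (-0.19, adjusted p = 0.0575). CD86 did not pass (-0.24, adjusted p = 0.0877, interval from -0.50 to 0.01), but did without untreated replicate 1 (-0.31) or 72 h replicate 1 (-0.30) and with both other scalings (-0.34 and -0.26). MICB is the ligand with a large fall under the drug and no call in either knockdown in the main fit, and both tests of that difference passed (adjusted p = 6.62e-10 and 6.38e-10). With median-of-ratios scaling MICB passed as lower in the ARID2 knockdown (-0.15) and in the labelled libraries (-0.16).

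**Figure D3:**
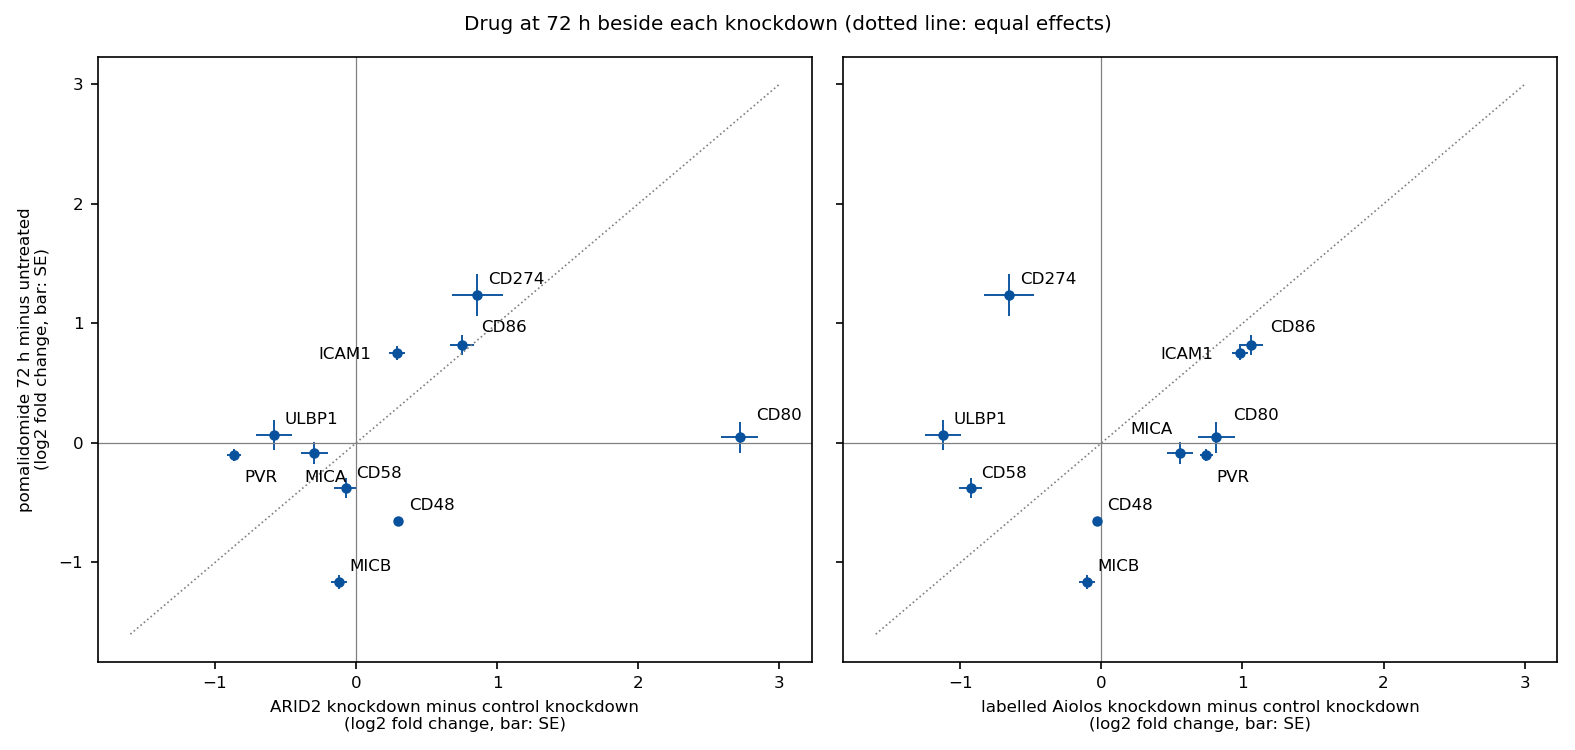
Log2 fold change after 72 h of drug (y axis) beside that of the ARID2 knockdown (left x axis) and of the libraries labelled Aiolos knockdown (right x axis); points are ligands, bars SE, and the dotted line marks equal effects. CD80 lies far to the right of the line on the left (2.72 against 0.05), and MICB far below it in both panels (-1.16 against -0.12 and -0.10).

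Further ligands from the same families were read beside the 10. Of 24 other T cell ligands 16 were tested. HHLA2 was kept only through the drug groups (group means without drug at most 0.0999 TPM), so it is no separate support there. In the ARID2 knockdown 9 rose and 1 fell (median 0.20), where 33.1% of all genes rose and 29.2% fell (median 0.02), led by TNFSF9, the 4-1BB ligand, from 36.6 to 194 TPM (2.37 ± 0.10), CD70, the CD27 ligand, from 133 to 405 TPM (1.60 ± 0.06), and PDCD1LG2 (PD-L2) from 5.91 to 17.7 TPM (1.43 ± 0.11). At 72 h of drug 10 rose and 6 fell (median 0.37; 48.1% and 31.6% of all genes, median 0.15), with CD70 down from 124 to 40.9 TPM (-1.58 ± 0.06) and VSIR (VISTA) up from 9.35 to 23.7 TPM (1.26 ± 0.08). In the libraries labelled Aiolos knockdown 8 rose and 5 fell (37.2% and 30.7% of all genes), with PDCD1LG2 (1.12), TNFRSF14 (1.06) and ICOSLG (0.94) leading. ICOSLG stood at 23.3 TPM there and at 11.6 TPM in the control knockdown, while untreated cells had 23.4 TPM.

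Of 18 other NK cell ligands 11 were tested. NECTIN2 was kept only through the drug groups (group means without drug at most 0.236 TPM), so it is no separate support there. At 72 h 7 rose and 2 fell (48.1% and 31.6% of all genes), in the ARID2 knockdown 5 rose and 2 fell (33.1% and 29.2%), and where Aiolos knockdown is the label 8 rose and 1 fell (37.2% and 30.7%). NECTIN3 rose in all 3 (0.94, 0.80 and 0.89). PDGFD, a growth factor bound by NKp44, rose from 1.12 to 27.2 TPM at 72 h of drug (3.75 ± 0.13). The NKG2D ligands related to ULBP1 were low: ULBP3 reached at most 0.938 TPM, and ULBP2 was listed at 0 in 20 libraries.

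**Figure D4:**
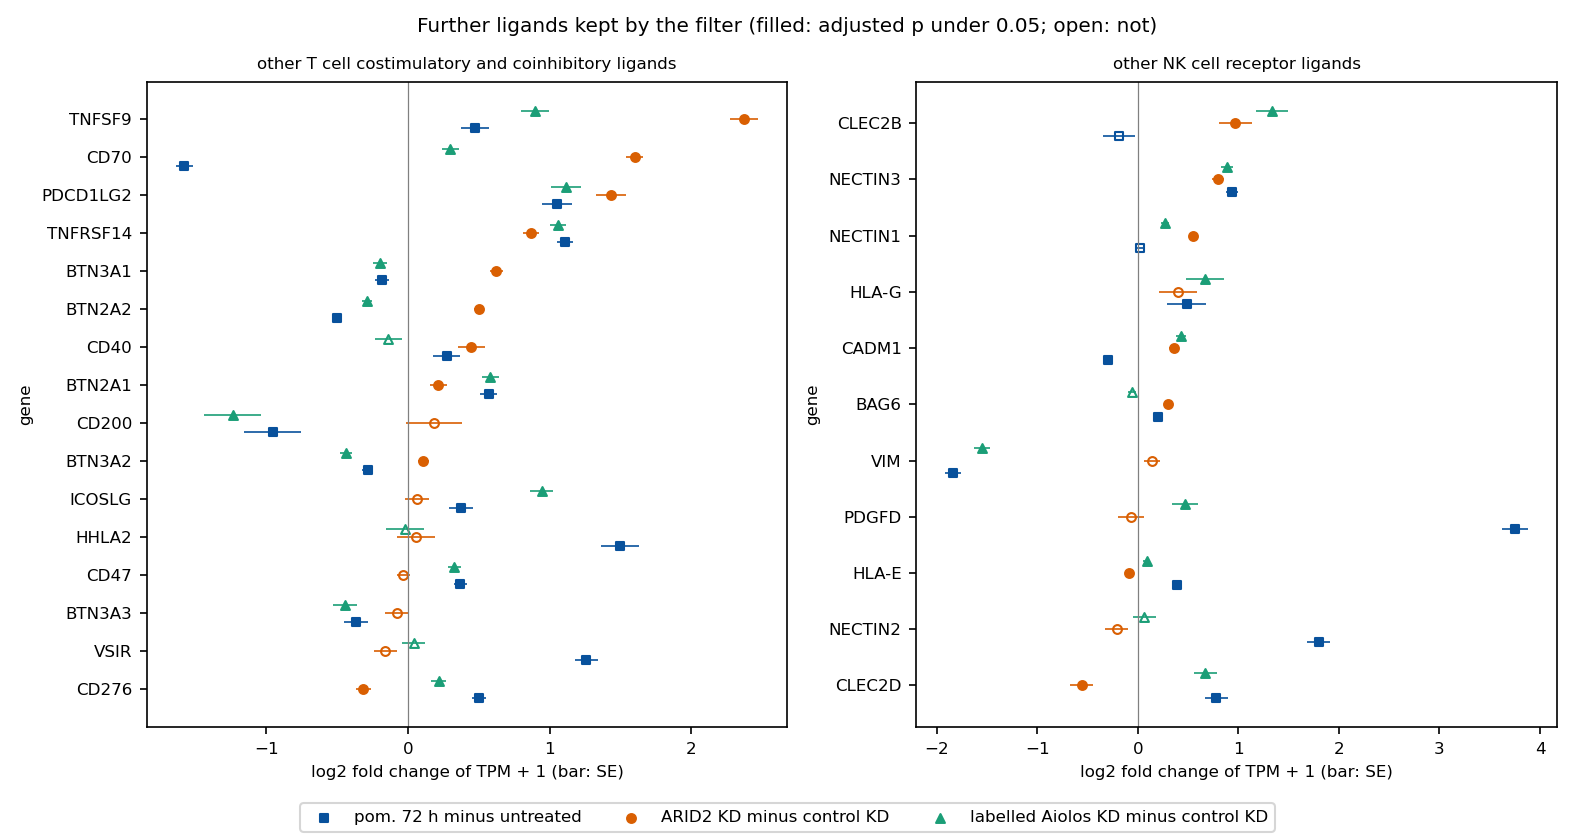
Log2 fold change of TPM + 1 (x axes, bars SE) of 16 further T cell ligands (left) and 11 further NK cell ligands (right) for 72 h of drug (squares), the ARID2 knockdown (circles) and the libraries labelled Aiolos knockdown (triangles); filled symbols passed. TNFSF9 and CD70 lie furthest right for the ARID2 knockdown (2.37 and 1.60), where CD70 under the drug is at -1.58.

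Proteins that cut or hold these ligands at the surface were read from a list of 14 genes, 11 of them tested. In the ARID2 knockdown 6 fell and 1 rose (29.2% and 33.1% of all genes), with ADAM10, a sheddase of MICA and MICB, going from 95.7 to 71.4 TPM (-0.42 ± 0.05) and ADAM15 from 111 to 72.2 TPM (-0.62 ± 0.05). Untreated cells had ADAM10 at 69.1 TPM and ADAM15 at 124 TPM, so only ADAM15 was also below the untreated level. At 72 h 5 rose and 4 fell, near the 48.1% and 31.6% of all genes. The protease MMP9 went from 0.138 to 38.9 TPM (5.14 ± 0.12). In the libraries labelled Aiolos knockdown 3 rose and 3 fell (37.2% and 30.7% of all genes); CMTM6, which keeps PD-L1 at the surface, rose by 0.37 ± 0.06 where CD274 fell.

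Genes of the pathways that act on ICAM1, CD80 and CD274 were counted as well. Of 14 tested NF-kB subunits and feedback genes 9 rose and 3 fell at 72 h (48.1% and 31.6% of all genes), 11 rose and 1 fell with the ARID2 hairpin (33.1% and 29.2%), and 8 rose and 4 fell in the libraries labelled Aiolos knockdown (37.2% and 30.7%). TRAF1 rose in all 3 (1.49, 1.44 and 1.07). Of 19 interferon and JAK-STAT genes 11 rose and 6 fell at 72 h, 14 rose and 2 fell with the ARID2 hairpin, and 13 rose and 1 fell in the libraries labelled Aiolos knockdown, against the same shares of all genes. The 6 that fell at 72 h are near the 31.6% of all genes. IRF7 rose in all 3 (1.83, 0.93 and 0.99), also where CD274 fell. IRF4, on which myeloma cells depend, stood at 229 TPM at 72 h, 453 TPM under the ARID2 hairpin and 137 TPM where Aiolos knockdown is the label, against 469 TPM untreated and 631 TPM in the control knockdown.

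The myeloma cells also carried transcripts of receptors that read these ligands. Of 12 receptor genes 7 were tested. CD28, the receptor of CD80 and CD86, ran from 224 to 444 TPM, above either of its ligands in every group, and rose at 72 h (0.71 ± 0.04), with the ARID2 hairpin (0.49 ± 0.04) and in the labelled Aiolos libraries (0.30 ± 0.04). PDCD1 (PD-1) stood at 38.1 TPM in the control knockdown, 53.6 TPM under the ARID2 hairpin and 65.8 TPM in the labelled Aiolos libraries. Under the drug it fell, from 38.5 TPM untreated to 27.3 TPM at 72 h, as did TIGIT, a receptor of PVR, from 9.81 to 4.95 TPM. Of the 7 receptors tested 5 rose and 2 fell at 72 h (48.1% and 31.6% of all genes). ITGAL, the alpha chain of LFA-1, rose from 110 to 277 TPM in the labelled libraries (1.32 ± 0.03), where ICAM1 was highest. ITGB2, its partner chain, was at 0 in 15 libraries and at most at 0.0491 TPM. Of 12 T and NK cell markers 2 were tested. Their sum was 3.51 to 4.19 TPM untreated, 6.53 to 8.78, 9.16 to 10.4 and 10.7 to 10.9 TPM at the 3 drug times, 3.38 to 4.84 and 3.04 to 3.20 TPM in the control and ARID2 knockdowns, and 2.32 to 2.84 TPM in the labelled libraries. The defining marker CD3E fell under the drug from a mean of 1.35 to 0.282 TPM, and NCAM1 carried the rise of that sum (8.70 TPM at 72 h).

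The genes whose 7 group means followed each ligand most closely were found among 4001 genes that spanned at least 1 on the log2 scale. This is a description over 7 points, all from the same libraries. CD80 was followed by LCE1D (r = 0.992, one of a family of near-identical genes, so uncertain), TNFSF9 (r = 0.986) and FDXR (r = 0.983). MICB was followed by CABLES2 (0.997), TEX30 (0.994) and PODXL2 (0.993), and CD86 by FGD3 (0.982), BEST3 (0.982) and PLEKHM1 (0.981). CD48 was followed by PARD3B (0.989), CD58 by SEC11C (0.979), ICAM1 by PQLC2 (0.978) and PVR by RBM38 (0.961). Among the 10 ligands themselves, the closest pairs were MICA with PVR (0.881), CD58 with ULBP1 (0.872) and CD48 with MICB (0.854), and PVR with CD274 ran most opposite (-0.810). Of these, ULBP1 and CD274 are low. ULBP1 was kept by the filter only through the control knockdown, where CD58 was also highest, so the value of that pair is no separate support. The pair that shares CD28, CD80 with CD86, stood at 0.195 and the pair MICA with MICB at 0.382.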

How the data were processed

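RNA of 21 MM.1S libraries was sequenced as mRNA (TruSeq RNA v2 kit, per the labels' protocols). The authors deposited 1 table of TPM values for 17691 gene symbols. The submitters' processing notes name the build hg38; how reads were aligned and quantified is not given in the sources used here. TPM divides reads by gene length and scales each library to a fixed total, so depth, counting error and count tests are lost, and a share can fall because others rose. Groups came from the sample titles.

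The 12559 genes that reached 1 TPM in 3 or more libraries were analysed as log2(TPM + 1) in limma 3.58.1 (R 4.3.3), with 7 group means, empirical Bayes with a trend, two-sided tests and Benjamini-Hochberg adjustment over all genes within each of 9 comparisons and 2 differences between effects. The script was tested on simulated data. The 10 genes, the lists and the tests were chosen with earlier results of these data known. The 10 genes and the targeted genes are all named. From each other list up to 3 genes per comparison were eligible, those with the largest change that passed and reached 5 TPM; receptors, markers and related ligands at or near 0 were added after their values were seen. A ligand was called low under 5 TPM in its highest group mean. Alternatives were pseudocounts of 0.1 and 5, no filter, a 5 TPM filter, median-of-ratios scaling, quantile normalization, only the compared groups, a replicate block and leaving out each library. Promoters came from RefSeq (GRCh38.p14), gene models from GENCODE 29.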

Additional observations from a re-analysis of the deposited data

How the results depend on the processing

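Of the 110 values, 1 for each of 10 ligands in 11 tests, none changed sign with its call under any setting. The side of the threshold held for 109 with a pseudocount of 5 TPM, 106 with 0.1 TPM, 108 without the filter, 98 with median-of-ratios scaling, 105 with quantile normalization and 109 with only the compared groups. Same-numbered libraries did not deviate together (correlations from -0.119 to 0.0765), so they share only a number. With the replicate block 109 of 110 held, the exception being MICB from 48 to 72 h (0.14, adjusted p = 0.059).

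The 5 TPM filter removed CD274 and ULBP1 from the test. The counts that changed by the largest factor became 3 ligands lower between the labelled Aiolos and ARID2 knockdowns, 1 lower in the labelled Aiolos knockdown, 3 higher in the control knockdown, 1 higher at 24 h and 1 with a higher drug effect than the labelled Aiolos knockdown. Other counts that had held CD274 or ULBP1 fell by a smaller factor. Median-of-ratios scaling moved the median of all genes at 72 h by -0.15, quantile normalization by -0.10, and the share of calls that were higher went from 60.4% to 49.9% with the former. Relative to that, 5 ligands were lower at 72 h, 5 lower in the labelled Aiolos knockdown, and 2 higher and 2 lower from 48 to 72 h; in that step the share of higher calls went from 65.7% to 46.1%, and to 53.5% with quantile normalization. Quantile normalization gave 0 ligands lower in the control knockdown and 2 lower from 48 to 72 h. Leaving out 1 library gave 2 to 4 higher and 0 to 1 lower in that last step. CD80, ULBP1 and CD274 lie near the floor of the table, and without counts the error of their low values cannot be given.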
